A study of Botryllus schlosseri with 42 samples.

Results

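The 282 contigs described here were abundant in fertile colonies of Botryllus schlosseri early in the blastogenic cycle and scarce in them late in the cycle. They were selected on measured values, the group means at stages A1, B1 and C2, out of the 50106 contigs of an expressed sequence tag assembly. A member had a fertile group mean of at least 50 normalised read counts at both A1 and B1. Its ratio of fertile to infertile mean, with 5 added to each, was at least 8 at both of these stages, and its fertile mean at C2 was at most 0.25 of that at B1. Of the 303 contigs within these limits, 21 that the study had already listed as differentially expressed genes of interest were left out. Because these means chose the members, all values at A1, B1 and C2 are given as a description with no test. Tests were made at A2, B2, C1 and D, whose means the choice did not use. The same colonies and pools recurred at every stage, so that these tests are not independent of the choice at A1 and B1.

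Botryllus schlosseri is a colonial ascidian in which all zooids of a colony are replaced together by buds in a repeated cycle, from stage A1 after takeover to stage D, in which the old zooids are resorbed. RNA of whole laboratory-raised colonies was sequenced at 7 stages of this cycle (A1, A2, B1, B2, C1 and C2, then D), from 3 fertile and 3 infertile libraries at each stage, 42 libraries in all. The fertile group, given as "Hermaprhodite" in its labels, comprised Fert801, Fert841 and MixFert, the last a pool of colonies SB802a, SB804 and SB722. The infertile group comprised Infert802, Infert001 and MixInfert, the last a pool of SB831, SB645, SB714, SB841 and SB842. The genotype name SB841 thus occurred in both groups. The study gives an infertile sample as SB802d, so that SB802 also occurred in both groups, with different suffixes. No colony was treated, and the same names recurred at every stage, so that the stages were not independent samples. In RNA of whole colonies, fewer cells of a type and less RNA per cell cannot be told apart.

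Zooids are hermaphroditic, and a fertile zooid carries testes beside its oocytes. In animals generally, developing male germ cells express the genes of the parts of the sperm: an axoneme with dynein motors, accessory structures of the tail, ion channels and cyclic nucleotide enzymes that control beating, and compacted chromatin. Testis-specific kinases and ubiquitin ligases act while the round spermatid is remodelled into a sperm. The homologs named below were known from the study's sheets of contigs with the smallest p-values at A1, A2, B1, B2 and C1. These are not an unbiased sample of the transcriptome, and the sheets of C2 and D were not used. Because the sheets were drawn up from these same data, counts over their contigs are not independent of how the contigs were picked. An excess over the share of all contigs is in part set by that.

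Among the 282 members, 131 had a human homolog and 179 had either a human homolog or a match to a predicted protein of the ascidian Ciona. Another 101 had no homolog, and 2 were not in the sheets. By role, 47 members matched only an uncharacterized Ciona protein, 25 were adhesion or matrix proteins or secreted proteases, and 20 were axonemal dyneins and related chains, 1 of them named after a cytoplasmic light chain. Sperm tail structure had 14 members, ion channels and cyclic nucleotide proteins 13, ubiquitin and proteasome 9, and kinases and phosphatases 5. Histones had 3 members, actin, myosin and troponin 3, and the list of meiosis and germ cell genes 1. None of 31 tubulin contigs in the sheets was a member. The remaining 39 had another homolog. Several contigs shared a homolog and may be pieces of 1 transcript or share reads, so that their levels are uncertain: 8 matched otoancorin, 8 dynein heavy chain 8, 4 dynein heavy chain 17 and 3 histone H1.0.

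Values of single libraries were recovered from the deposited group means as whole read pairs. Within a group and stage the libraries were numbered by size factor, the largest being library 1. The number carries no genotype, and library 1 of a group need not be the same colony at 2 stages. All 42 values were obtained for 279 members. Per library, between 3425615 and 13454247 read pairs fell on contigs so resolved. The lowest number was that of fertile library 3 at C1.

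In the summed level of these 279 members, 5 libraries stood apart. Fertile library 3 at A2 had 0.0619 of the mean of the other fertile A2 libraries, and it was the lowest fertile library for 273 of 279 members. Fertile library 3 at C1 had 3.97 times the mean of the other fertile C1 libraries. The library labelled infertile 1 had 7.61 times the mean of the other infertile libraries at B2, 22.3 times at C1 and 19.4 times at C2. Across all contigs, the median ratio of these 5 libraries to the others of their group lay between 0.88 and 0.92. The testis kinase tsk-1, a gene of the study that is not a member, had 18.5 normalised counts in fertile A2 library 3, against 2488 and 1897 in the other fertile A2 libraries. In infertile C2 library 1 it had 1235, against 18.5 and 8.38 in the other infertile C2 libraries. The study saw zp-1 RNA in follicle cells of the egg and along the endostyle. The level of zp-1 was 8.65 in infertile C2 library 1 and 0 in the other infertile C2 libraries. In fertile C2 colonies it was 193, 563 and 951. The other genes checked in fertile A2 library 3 and infertile C2 library 1 were as follows. They are not listed for the other libraries that stood apart. In fertile A2 library 3 the yolk protein vitellogenin had 78.5, against 4988 and 8366 in the other fertile A2 libraries, ldlr had 39.2, against 314 and 624, and zp-1 had 11.5, against 67.5 and 80.4. Otoancorin had 847 there, against 6067 and 3717. The germ cell genes were closer, with 122, against 187 and 112, for nanos, 362, against 1570 and 464, for vasa and 1147, against 4418 and 1363, for piwi 1. In infertile C2 library 1 vitellogenin had 678, against 239 and 8.38 in the other infertile C2 libraries, nanos 121, against 29.6 and 8.38, vasa 719, against 209 and 134, and piwi 1 2566, against 561 and 405. For ldlr that library had 10.37, against 11.1 and 2.79, and for piwi 2 it had 195, against 79.6 and 1201. Otoancorin had 1108 there, against 22.2 and 25.1, and tetraspanin-8 22.5, against 5.55 and 13.97. Tolloid-like 1 had 12.1, against 0 and 0, and P-selectin 38.0, against 7.40 and 5.59. Thus some genes of oocytes, of follicle cells and of germ cells also moved in part with these libraries. The study saw vitellogenin RNA in follicle cells of the testes as well as on maturing eggs. In infertile C2 library 1, ldlr and piwi 2 lay between the other infertile libraries. Why the libraries differed was not tested. Sums and counts over the members are given with and without them, single contigs by the value in every library.

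The members together reached their highest level in fertile colonies at B1 and B2. Their summed level was 178653, 137007 and 140560 normalised counts in the fertile A1 libraries, against 2267, 1780 and 4013 in the infertile A1 libraries. At A2 it was 224565, 143974 and 11398 in fertile colonies and 3996, 1180 and 1755 in infertile colonies. The lowest fertile library thus still lay above all infertile ones at A2, although it was the one that stood apart. At B1 the sum was 340263, 197108 and 161395 in fertile and 1942, 2701 and 4933 in infertile colonies. At B2 it was 285952, 113621 and 309104 in fertile and 28480, 4843 and 2640 in infertile colonies. Through B2 every fertile sum lay above every infertile sum.

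From C1 on, the sums of the groups overlapped or came close. At C1 the fertile libraries had 31412, 34656 and 131106, against 60487, 3675 and 1758 in infertile libraries. At C2 the fertile libraries had 14471, 15996 and 9552, against 76126, 3739 and 4130 in infertile libraries, so that the highest value at C2 belonged to a library labelled infertile. At D the fertile libraries had 12196, 17684 and 15208, against 2026, 5245 and 3764 in infertile libraries, and the groups were separate again.

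**Figure D1:**
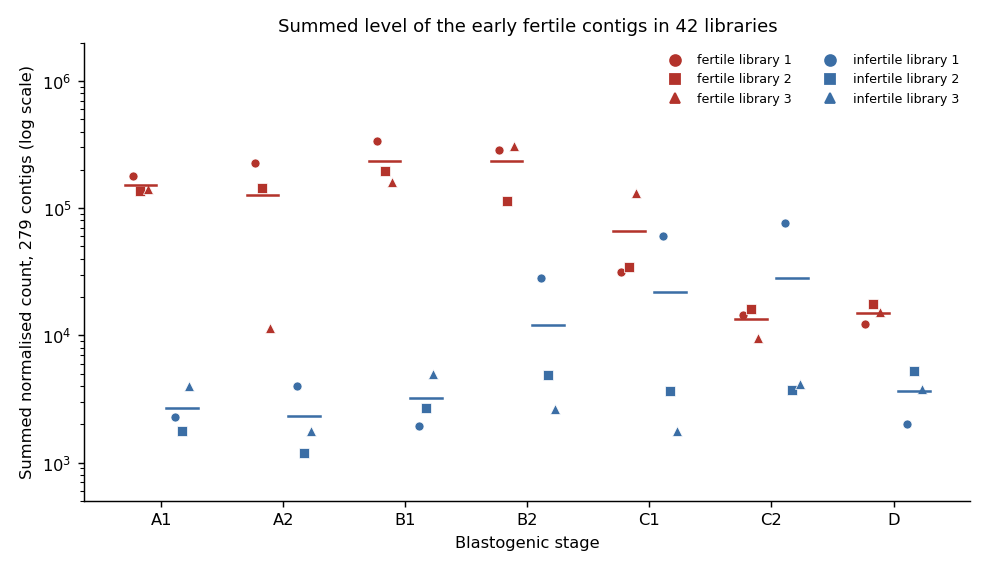
Summed level of 279 members in each of the 42 libraries by stage (normalised read counts, log axis, lines at group means, fertile left and infertile right within a stage). Fertile libraries lie between 113621 and 340263 at A1, B1 and B2 and between 9552 and 17684 at C2 and D, and infertile library 1 reaches 76126 at C2.

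Over these 279 members the mean fertile sum was 56.6 times the infertile in stage A1, 54.8 times in A2, 73.0 times in B1 and 19.7 times in B2. Later it was 2.99 times in C1, 0.476 times in C2 and 4.09 times in D. Without fertile library 3 the ratio at A2 was 79.8. Without infertile library 1 it was 63.1 at B2, 24.2 at C1 and 3.39 at C2. At C1 the ratio was 1.503 without fertile library 3 and 12.2 without both libraries that stood apart. These leave-outs of the sum were chosen after the levels had been seen. The 3 members outside these sums had the highest fertile B1 means of all. Over all 282, summed group means were 214701 fertile and 6617 infertile at A1, 184291 and 7467 at A2, and 346664 and 6679 at B1. They were 363099 and 20025 at B2, 101611 and 37220.5 at C1, 17095 and 53621 at C2, and 18416.5 and 8035 at D. Over all 282 the ratio of fertile to infertile was thus lower at every stage.

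Member by member, the fertile mean was highest at B2 for 127, at B1 for 120, at A1 for 32, at C1 for 2 and at A2 for 1. The division between B1 and B2 depends on the scale, since the authors normalised each stage separately. With 1 scale over all stages, 176 of 279 members were highest at B2, 55 at B1 and 39 at A1. Relative to B1, the median fertile mean of the members was 0.979 at B2 and 0.272 at C1. Without fertile C1 library 3 the C1 median was 0.106 over 279 members. The median was 0.0479 at C2 and 0.0520 at D. Over all contigs with a fertile B1 mean of at least 50, the same medians were 0.867, 0.858, 0.960 and 0.810. The C2 value was fixed by the choice of members. Between C2 and D the fertile mean of 158 of 282 members was higher at D, with a median ratio of 1.103. At C2, 109 members had a fertile mean under 10 normalised counts, and at D 94 had.

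In infertile colonies many members were near the limit of detection. At A2, 157 of 279 members had 3 or fewer read pairs in every infertile library. At B2, C1 and C2 this held for 10, 3 and 10 members, since infertile library 1 held read pairs of nearly all of them. At D it held for 106 members.

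At A2 all 282 members passed the filter of a mean of at least 10 normalised counts over the 6 libraries. They could pass through the fertile libraries alone, since the median of their infertile group means was 3.19. The members were chosen at A1 and B1 in the same colonies and pools. An excess over all contigs at A2, B2, C1 or D is therefore in part carried over from that choice. With limma and a Benjamini-Hochberg adjustment over 37358 contigs at a 10% false discovery rate, 0 members were called, and 0% of all contigs were. At an unadjusted p under 0.05, 222 of 282 members were higher in fertile colonies, beside 4.02% of all contigs, and voom on read pairs called 0 members. The median log2 difference, fertile minus infertile, was 4.59 over the members and 0.01 over all contigs. All 3 fertile libraries lay above all 3 infertile libraries for 183 of 282 members, beside 6.93% of all contigs. Without fertile library 3, limma called 182 members (0.803% of all contigs), and the groups were apart for 279, beside 12.7% of all contigs.

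At B2 library values were resolved for 279 members, all of which passed the filter. Limma called 0 of them, beside 0.0106% of 37670 contigs, and voom called 0. At an unadjusted p under 0.05, 255 of 279 were higher in fertile colonies, beside 2.98% of all contigs. The median log2 difference was 4.66 over the members and -0.01 over all contigs, and it was below 0 for 2 members. The groups were apart for 249 of 279 members, beside 4.88% of all contigs. Without infertile library 1, limma called 38 members (0.133% of all contigs), and the groups were apart for 271, beside 10.1% of all contigs. A single limma fit over all stages, which shares the spread between them and does not model the recurring colonies, called 115 members at A2 (0.879% of all contigs) and 79 at B2 (0.552%).

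At C1 limma called 0 of 277 members, beside 0% of 38213 contigs, and voom called 0. At an unadjusted p under 0.05 limma had 14 members higher in fertile colonies, beside 2.32% of all contigs. The median log2 difference was 2.45 over the members tested and 0.01 over all contigs. The groups were apart for 6 of 282 members, beside 4.39% of all contigs. Infertile library 1 lay above at least 1 fertile library for 271 of 279 members. The share of all contigs for which this held was not counted, so that 271 cannot be set against it. Without it the groups were apart for 238, beside 12.5% of all contigs, and limma called 1 member (0.00523% of all contigs).

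At D 157 of 282 members passed the filter, and a member low in both groups could not pass, so that values over those that passed do not stand for the members as a whole. Limma called 3 of the 157, beside 0.0344% of 37813 contigs, all higher in fertile colonies, and voom called 0. Without any 1 of the fertile libraries limma called 0, and without infertile library 1, 2 or 3 it called 1, 8 and 29. The share of all contigs called in these leave-outs is not given, so that these counts cannot be set against it. At an unadjusted p under 0.05, 99 were higher in fertile colonies, beside 6.75% of all contigs. The groups were apart, fertile above infertile, for 136 of 282 members, beside 10.9% of all contigs. They were apart the other way round for 3, a direction not counted over all contigs. None of the members tested at A2, B2, C1 or D was called lower in fertile colonies.

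**Figure D2:**
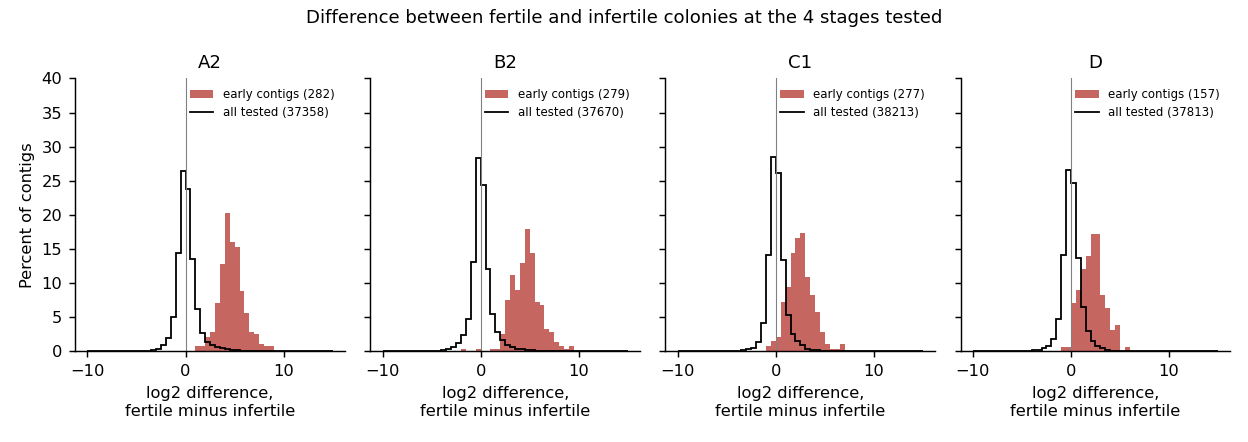
Share of contigs by log2 difference, fertile minus infertile, at A2, B2, C1 and D, for the members tested and for all contigs tested (percent of each set, 3 libraries per group). The members' medians are 4.59, 4.66, 2.45 and 2.17, while the medians over all contigs lie within 0.02 of 0.

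For A1, B1 and C2, used in the choice, the groups were apart in the fertile direction for 275 of 281 members at A1 (7.75% of all contigs) and for 274 of 279 at B1 (8.04%). At C2 they were apart in that direction for 20 of 282 (7.22%) and in the other, which was not counted over all contigs, for 5. Without infertile library 1, an alternative added after seeing the data, the groups were apart at C2 for 141 members, beside 15.7% of all contigs. The median ratio of fertile to infertile mean that entered the choice was 23.8 at A1, between 8.14 and 824, and 29.3 at B1, between 8.26 and 1105.

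Dyneins are the motors that slide the microtubules of an axoneme past each other. The 20 dynein members, most of them heavy chains of the axonemal arms, had their highest fertile mean at A1 for 12 of 20, against 32 of 282 members as a whole. Their summed fertile level relative to B1 was 0.336 at C1, 0.147 at C2 and 0.205 at D, against 0.282 at C1 over all members. Without fertile C1 library 3, left out after its level had been seen, the C1 values were 0.0809 for the dyneins and 0.142 over all members, so that their order turned round. A1, B1 and C2 entered the choice, and no difference in course was tested. The contig Bot_c274 (dynein heavy chain 8) had 2365, 1609 and 330 normalised counts in fertile A2 libraries, against 197, 3.38 and 22.4 in infertile ones. At B2 it had 1666, 917 and 1496 in fertile and 614, 13.2 and 46.5 in infertile colonies. The groups did not overlap at either stage, and the log2 differences of 5.31 ± 1.49 and 4.14 ± 1.36 (SE, n = 3 each) were not called by limma (adjusted p = 0.75 and 1.0).

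The members with the smallest p at A2 were also dyneins. CAP3_round1_contig_2714 (dynein heavy chain 5) had 104.7, 59.3 and 32.3 in fertile A2 colonies and 0 in all 3 infertile ones, with a limma adjusted p of 0.12. Bot_c30336 (dynein heavy chain 8) had 120, 57.2 and 32.3 in fertile A2 colonies and again 0 in infertile ones (adjusted p = 0.14). In both contigs fertile library 3 was the lowest but kept part of the signal. CAP3_round1_contig_5650, a match to Tctex1 domain-containing protein 1 of the dynein light chain family, had 540, 313 and 94.7 in fertile and 4.98, 0 and 7.46 in infertile A2 colonies. Bot_c23345, named after dynein light chain 2, cytoplasmic, had 289, 131 and 27.7 in fertile and 13.3, 25.4 and 7.46 in infertile A2 colonies.

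Bot_c32023, a further match to dynein heavy chain 5, was 1 of the 3 members called at D. It had 29.2, 17.04 and 13.9 in fertile D colonies and 0 in all 3 infertile ones, a log2 difference of 4.33 ± 0.34 (SE; limma adjusted p = 0.061) that depends on the pseudocount, since the infertile libraries were at 0. Over the list of 42 dynein contigs in the sheets, members included, limma called 0 at A2, B2 and C1 and 1 at D, all comparisons having 3 libraries per group. At an unadjusted p under 0.05, 25 of 42 were higher in fertile colonies at A2, 28 of 41 at B2, 2 of 41 at C1 and 26 of 35 at D, and none was lower. Over all contigs the share higher at this limit was 4.02% at A2, 2.98% at B2, 2.32% at C1 and 6.75% at D. The share of all contigs lower at this limit was not counted.

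The outer dense fibre proteins surround the axoneme of the mammalian sperm tail. The 14 members of the sperm tail list had their highest fertile mean at B2 for 10 of 14, on the scale of each stage. The summed fertile level relative to B1 was 1.21 at B2 and 0.295 at C1, then 0.0217 at C2 and 0.0194 at D. Without fertile C1 library 3 it was 0.0997 at C1. No difference from the dyneins was tested. Bot_rep_c52016 (outer dense fiber protein 3-like protein 2) had 2450, 488 and 1569 in fertile B2 colonies, against 134.7, 30.2 and 18.1 in infertile ones, a log2 difference of 4.83 ± 0.96 (SE; limma adjusted p = 0.74). At C2 it had 15.5, 53.4 and 6.41 in fertile colonies, against 399, 9.25 and 8.38 in infertile ones.

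All 14 members of the sperm tail list lay, in infertile C2 library 1, above all 3 fertile C2 libraries, and their summed level was 16.7 times the fertile mean. A low fertile C2 mean was part of the choice, so that such counts and ratios at C2 are in part set by it. The share over all contigs was not counted. Bot_rep_c36030, a match to the uncharacterized human protein C17orf105, had 18.96, 16.02 and 19.2 in fertile C2 colonies, against 277, 25.9 and 16.8 in infertile ones. CAP3_round1_contig_8769 (FAM166B) had 12.1, 10.7 and 10.7 in fertile C2 colonies, against 164, 48.1 and 0 in infertile ones. At the other end, fertile A2 library 3 had 1.79% of the summed sperm tail level of the other fertile A2 libraries. Of the 21 sperm tail contigs in the sheets, 12 had an unadjusted p under 0.05 at A2 and 18 at B2, all higher in fertile colonies, beside 4.02% and 2.98% of all contigs. At D 1 of 9 tested was higher and 1 lower, beside 6.75% of all contigs higher, and limma called 0 at A2, B2, C1 and D.

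Ion channels and cyclic nucleotides control the beat of sperm. Among the 13 members of this list, CAP3_round1_contig_3301 matched a cyclic nucleotide-gated channel, a cation channel opened by cyclic nucleotides. It had 4347, 1263 and 2192 in fertile B2 colonies, against 750, 127 and 124 in infertile ones, and at A2 3711, 3012 and 683, against 257, 54.2 and 127. The groups were apart at both stages, with log2 differences of 4.01 ± 0.86 at A2 and 3.32 ± 0.89 at B2 (SE; limma adjusted p = 0.53 and 0.92). At D the groups stayed apart, with 762, 1280 and 1225 in fertile and 55.4, 286 and 186 in infertile colonies.

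Bot_c2194 (phosphodiesterase 10A, an enzyme that degrades cyclic nucleotides) followed another course at C2 and D. It had 2468, 885 and 1647 in fertile B2 colonies, against 195, 17.01 and 2.59 in infertile ones. At C2 it had 43.1, 7.12 and 4.27 in fertile and 866, 12.96 and 8.38 in infertile colonies, and at D 3.65, 20.8 and 31.8 in fertile and 7.15, 6.16 and 18.3 in infertile colonies, where the groups overlapped. Bot_rep_c35754 matched a hyperpolarization-activated cyclic nucleotide-gated channel, as did 3 further members. It had 1404, 304 and 765 in fertile and 99.8, 13.2 and 12.9 in infertile B2 colonies.

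Another 3 members of the list were chosen for their homologs after their values had been seen. The CatSper proteins form a calcium channel that mammalian sperm need for fertility. CAP3_round1_contig_3581 (CatSper 4) had 168, 41.1 and 89.6 in fertile B2 colonies and 13.3, 0 and 0 in infertile ones. CAP3_round1_contig_1695 (CatSper 1) had 58.4, 62.7 and 136 in fertile and 31.6, 9.45 and 15.5 in infertile B2 colonies. Bot_rep_c44693 matched sodium/hydrogen exchanger 10, which in mice is a sperm-specific transporter, and had 218, 139 and 362 in fertile and 66.5, 5.67 and 10.3 in infertile B2 colonies. None of these was called by limma, while the fertile libraries were above the infertile ones for each. Over the 34 contigs of the list in the sheets, the unadjusted p was under 0.05 for 14 of 31 tested at A2 (4.02% of all contigs), 25 of 33 at B2 (2.98%) and 11 of 21 at D (6.75%), all higher in fertile colonies, and limma called 0 at A2, B2, C1 and D.

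**Figure D3:**
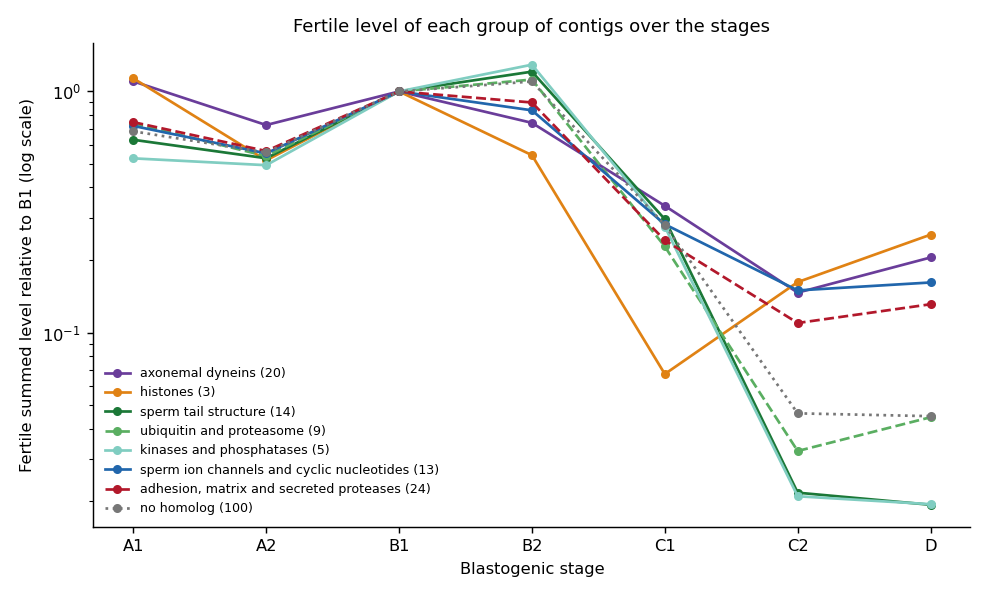
Summed level of the members of each role in fertile colonies, mean of 3 libraries, relative to B1 (log axis, stages A1 to D, number of members in brackets). The dyneins and histones stand at 0.147 and 0.162 of their B1 level at C2, while the sperm tail list stands at 0.0217.

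Kinases and phosphatases set the phosphorylation of proteins during sperm formation. From the germ cell expression of the mouse homologs, the study proposes a role of testis-specific kinases at and after meiosis in sperm formation. Bot_rep_c45613 matched testis-specific serine/threonine kinase 1. It had 2680, 597 and 1633 in fertile B2 colonies, against 63.2, 7.56 and 0 in infertile ones. The log2 difference was 7.39 ± 1.53 (SE), with a limma adjusted p of 0.74. A second match, Bot_rep_c35291, had 1077, 742 and 1830 in fertile and 78.2, 11.3 and 10.3 in infertile B2 colonies. At C2 the values were 22.4, 5.34 and 2.14 for the first in fertile colonies, against 384, 1.85 and 2.79 in infertile ones. Bot_rep_c51846 matched a B56 subunit, which directs protein phosphatase 2A to its substrates, and had 5259, 1166 and 3760 in fertile and 173, 20.8 and 10.3 in infertile B2 colonies. It kept separate groups at D, with 69.3, 60.6 and 63.7 in fertile and 12.5, 10.3 and 9.16 in infertile colonies (log2 difference 2.50 ± 0.26, SE; limma adjusted p = 0.14). All 5 members of the list were above all fertile C2 libraries in infertile library 1, a count in part set by the choice at C2. Of 76 kinase and phosphatase contigs in the sheets, limma called 0 at A2, B2, C1 and D, with 15 of 71 at A2 (4.02% of all contigs), 17 of 66 at B2 (2.98%) and 22 of 68 at D (6.75%) higher in fertile colonies at an unadjusted p under 0.05. At this limit 1 was lower at A2 and 2 at D.

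The ubiquitin and proteasome list had 9 members. Kelch-like protein 10 is in mice a substrate adaptor of a ubiquitin ligase of spermatids, and 3 members matched it. CAP3_round1_contig_433 had 1859, 545 and 837 in fertile B2 colonies and 422, 5.67 and 46.5 in infertile ones. Bot_c12760 had 432, 251 and 710 in fertile and 38.3, 5.67 and 2.59 in infertile B2 colonies, and 0 in fertile A2 library 3. Bot_rep_c45555 matched proteasome activator complex subunit 3 and had 1676, 355 and 942 in fertile and 128, 35.9 and 2.59 in infertile B2 colonies. At B2 the fertile libraries were above the infertile ones for all 9 members, beside 4.88% of all contigs, and limma called 0 of them, each p being under 0.05 before adjustment, beside 2.98% of all contigs. In infertile C2 library 1 the 9 members lay above all fertile C2 libraries and together had 9.86 times the fertile mean. Both values are in part set by the choice at C2. Of 97 such contigs in the sheets, limma called 0 at A2, B2, C1 and D, with 16 of 79 at A2 and 28 of 80 at B2 higher in fertile colonies at an unadjusted p under 0.05 and none lower, beside 4.02% and 2.98% of all contigs higher. At D 19 of 68 were higher and 3 lower, beside 6.75% of all contigs higher.

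The single member of the meiosis and germ cell list, Bot_rep_c56365, matched spermatogenesis-associated protein 21. It had 1899, 782 and 2371 in fertile B2 colonies and 143, 1.89 and 0 in infertile ones, with a log2 difference of 7.67 ± 1.83 (SE; limma adjusted p = 0.83). At A2 it had 1508 and 885 in 2 fertile libraries and 6.93 in the one that stood apart, against 1.66, 5.08 and 0 in infertile colonies. At C2 it had 20.7, 14.2 and 12.8 in fertile and 534, 5.55 and 2.79 in infertile colonies.

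Linker histones bind the DNA between nucleosomes and compact chromatin. Relative to B1, the summed fertile level of the 3 histone H1.0 members was 1.13 at A1, 0.544 at B2 and 0.0674 at C1, then 0.162 at C2 and 0.255 at D. Without fertile library 3 the C1 value was 0.0310. Bot_rep_c45042 had 2642, 6817 and 4595 in fertile A1 colonies and 14.1, 12.8 and 14.4 in infertile ones. At C1 it had 64.9, 91.9 and 446 in fertile and 643, 6.97 and 0 in infertile colonies. At D it had 488, 1571 and 1100 in fertile and 17.9, 306 and 0 in infertile colonies, a log2 difference of 5.72 ± 1.998 (SE; limma adjusted p = 0.39). Thus the highest infertile value lay in library 1 at C1 and in library 2 at D.

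A second H1.0 contig, Bot_rep_c50326, had 474, 1051 and 810 in fertile D colonies and 19.7, 230 and 2.29 in infertile ones. Bot_rep_c52805 had 947, 485 and 127 in fertile A2 colonies and 0, 0 and 2.49 in infertile ones, with a log2 difference of 8.00 ± 0.89 (SE; limma adjusted p = 0.14). In infertile C2 library 1 the summed histone level was 0.390 times the fertile C2 mean, and 1 of the 3 contigs lay above all fertile C2 libraries. Of 14 histone contigs in the sheets, 12 at A2, 10 at B2 and 6 at C1 were higher in fertile colonies at an unadjusted p under 0.05, beside 4.02%, 2.98% and 2.32% of all contigs. At D 9 of 13 were higher, beside 6.75% of all contigs, and 1 was lower, and limma called 0 at A2, B2, C1 and D.

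Actin, myosin and troponin build and regulate contractile filaments, mostly in muscle. Bot_c191 (myosin-8) had 934, 472 and 199 in fertile A2 colonies, against 59.7, 16.9 and 22.4 in infertile ones. At D it had 193, 278 and 207 in fertile and 41.1, 49.3 and 52.7 in infertile colonies (log2 difference 2.21 ± 0.28, SE; limma adjusted p = 0.20). Bot_rep_c51870, 1 of 2 members that matched troponin C, the calcium sensor of the muscle thin filament, had 62.0, 49.2 and 51.7 in fertile and 7.15, 6.16 and 4.58 in infertile D colonies (adjusted p = 0.10, not below the limit). The other, Bot_rep_c54184, had 21.9, 37.9 and 31.8 in fertile and 5.36, 4.11 and 2.29 in infertile D colonies. Over the 59 contigs of this list in the sheets there was no common direction at D, where 18 of 53 were higher and 18 lower in fertile colonies at an unadjusted p under 0.05, beside 6.75% of all contigs higher, and limma called 0 at A2, B2, C1 and D.

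**Figure D4:**
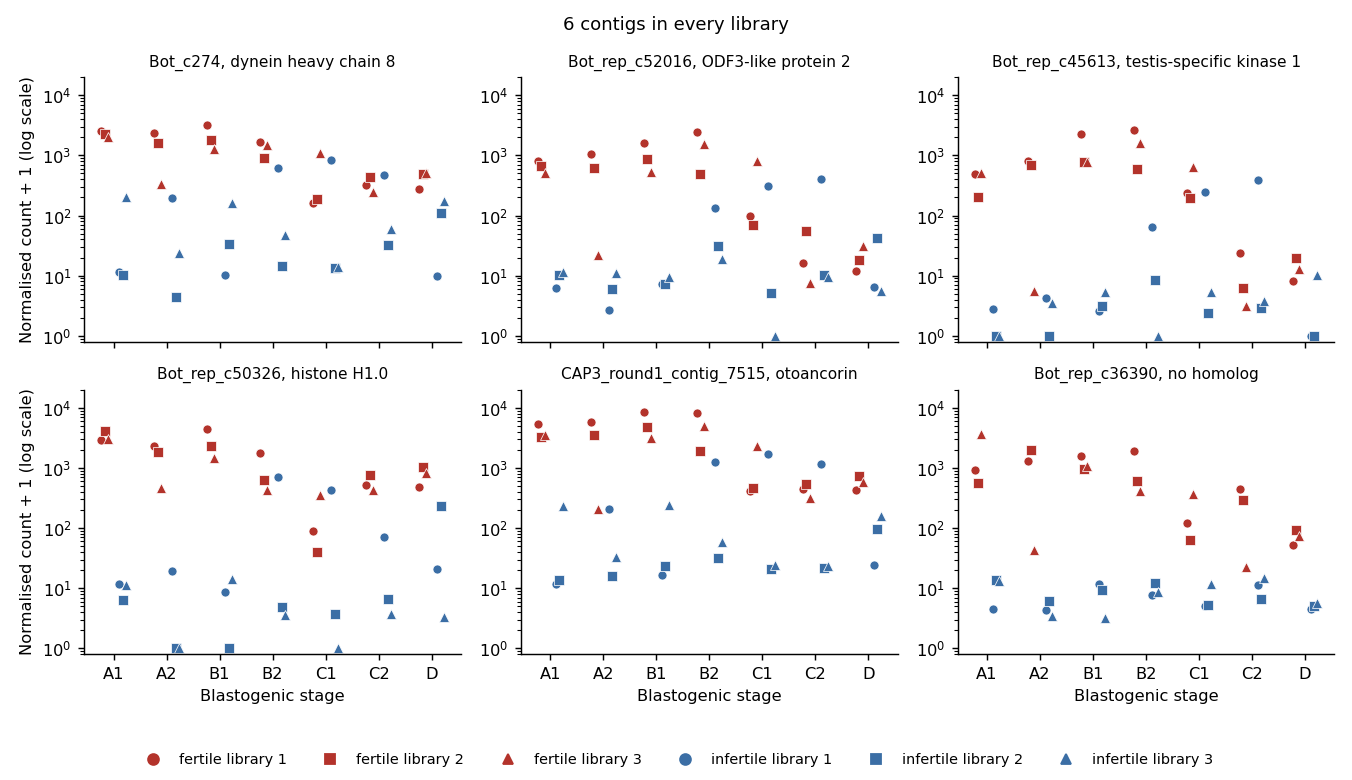
Level of 6 members in each library by stage (normalised read counts + 1, log axis, fertile red and left, infertile blue and right, symbols by library number). Fertile levels are lower at C2 than at B1, and infertile library 1 stands above the other infertile libraries at B2, C1 and C2 in all but Bot_rep_c36390.

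The adhesion, matrix and secreted protease list had 25 members, 8 of which matched otoancorin, a protein that in mammals attaches gels to sensory epithelia of the inner ear. CAP3_round1_contig_7515 had 8212, 1931 and 4940 in fertile B2 colonies and 1238, 30.2 and 56.9 in infertile ones. At D it had 434, 746 and 573 in fertile and 23.2, 96.6 and 160 in infertile colonies. Bot_rep_c51823, also a match to otoancorin, had 8099, 1369 and 3786 in fertile and 858, 30.2 and 33.6 in infertile B2 colonies. The fertile C2 mean of the 8 otoancorin members was between 0.0680 and 0.211 of that at B1.

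CAP3_round1_contig_7351, a match to mucin-2, which forms gels on epithelia, was 1 of the 3 members without all 42 values. Its infertile level was high throughout: 31962, 33720 and 683 in fertile A2 colonies stood beside 589, 5072 and 2173 in infertile ones, and the groups overlapped. At D it had 545, 2751 and 1761 in fertile and 2859, 1366 and 348 in infertile colonies. CAP3_round1_contig_973 (tenascin, an extracellular matrix protein, chosen after its values were seen) was 1 of the 6 members with separate groups at C1, with 109, 62.9 and 429 in fertile and 25.6, 27.9 and 10.8 in infertile colonies. Of 132 contigs of this list in the sheets, limma called 1 at D, which was not a member, and 0 at A2, B2 and C1. At an unadjusted p under 0.05, 47 of 123 were higher and 2 lower in fertile colonies at A2, and 42 of 123 were higher and none lower at B2, beside 4.02% and 2.98% of all contigs higher. At D 51 of 112 were higher and 7 lower, beside 6.75% of all contigs higher.

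The most abundant members without a homolog had a wide range between fertile and infertile colonies. CAP3_round1_contig_8616 had 13480, 7810 and 30854 in fertile B2 colonies, against 782, 18.9 and 0 in infertile ones, a log2 difference of 9.21 ± 2.30 (SE; limma adjusted p = 0.86). CAP3_round1_contig_2247 had 12138, 7569 and 13103 in fertile and 780, 15.12 and 0 in infertile B2 colonies. Both were in infertile C2 library 1 at a similar level, 4750 and 4744, against 24.1 and 19.6 for the first and 29.6 and 47.5 for the second in the other infertile libraries. The member without a homolog with the highest fertile B1 mean was abundant in all colonies, with 32184, 29780 and 5377 in fertile and 2818, 2452 and 2322 in infertile A2 colonies, and at D it had 1207, 1976 and 1428 in fertile and 1371, 1993 and 5082 in infertile colonies.

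Of the 3 members called at D, 2 had no homolog. Bot_c24592 had 230, 203 and 261 in fertile D colonies, against 5.36, 12.3 and 6.87 in infertile ones, a log2 difference of 4.72 ± 0.36 (SE; limma adjusted p = 0.061). Bot_rep_c36390 had 51.0, 90.9 and 73.6 in fertile D colonies, against 3.58, 4.11 and 4.58 in infertile ones (3.81 ± 0.31, SE; adjusted p = 0.061). It was also the member with the smallest p at C1 and among those with the smallest p at B2. Its infertile level did not share the high values of library 1: at B2 it had 1914, 607 and 419 in fertile and 6.65, 11.3 and 7.76 in infertile colonies, and at C1 118, 62.9 and 364 in fertile and 4.04, 4.18 and 10.8 in infertile colonies. The other contig with a smallest p at C1, Bot_rep_c46689, had 19.7, 21.8 and 64.998 in fertile and 4.04, 0 and 0 in infertile C1 colonies. At B2 the smallest p belonged to Bot_c2976, a match to ADP-ribosylation factor 6, a small GTPase of membrane traffic, which had 187, 50.9 and 140 in fertile colonies and 0 in all 3 infertile ones (adjusted p = 0.13).

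The uncharacterized Ciona protein LOC100184486 was matched by 4 members, which were named after their values had been seen. Their fertile B1 means lay between 2958 and 29737, and their fertile C2 means between 0.00719 and 0.0125 of those. CAP3_round1_contig_6518 had 507, 55.2 and 79.1 in fertile C2 colonies, against 15570, 66.6 and 81.0 in infertile ones, and 55.4 in fertile A2 library 3, against 16966 and 22208 in the other fertile A2 libraries.

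The groups overlapped at A1 or B1 for 6 members, although their means were within the limits. In these, 1 or 2 fertile libraries carried most of the fertile mean. Bot_c5366 (epithelial membrane protein 1, chosen after its values were seen) had 101, 20.6 and 9229 in fertile B1 colonies and 6.17, 37.3 and 38.96 in infertile ones. CAP3_round1_contig_5648, which was not in the sheets, had 43.2, 11.3 and 8012 in fertile and 24.7, 26.9 and 28.1 in infertile B1 colonies. Stearoyl-CoA desaturase 5, an enzyme that adds a double bond to fatty acids, had 2 contigs among them. CAP3_round1_contig_5584 had 4512, 1836 and 2.34 in fertile and 462, 9.13 and 0 in infertile A1 colonies, and Bot_rep_c47815 had 1652, 758 and 0 in fertile and 279, 3.65 and 0 in infertile ones. At C2 the desaturase contigs were high in the other infertile libraries, not in library 1: CAP3_round1_contig_5584 had 37.9, 12.5 and 301 in fertile and 0, 955 and 1567 in infertile colonies. More than 90% of the fertile sum lay in 1 library for 4 members at A1, 3 at B1 and 36 at C1.

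The members nearest to the limits were as follows. For the fertile A1 mean, CAP3_round1_contig_1311 was inside with 50.3 and Bot_c2750 (CatSper 2) outside with 48.99. For the fertile B1 mean, Bot_c4172 was inside with 60.7 and Bot_c49506 outside with 43.3. For the ratio at A1, Bot_rep_c47815 was inside with 8.14 and CAP3_round1_contig_9729 outside with 7.99, and at B1 Bot_c12404 was inside with 8.26 and CAP3_round1_contig_4816 outside with 7.97. For C2 over B1, Bot_c5695 (E-selectin, a lectin of cell adhesion) was inside with 0.2496 and Bot_c30925 (betaine transporter) outside with 0.257. With a ratio of at least 4 there would be 334 members, and with at least 16 there would be 174.

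Roles differed in how far the libraries that stood apart departed from their groups, and these differences are given as measured, with no test. In fertile A2 library 3 the summed level relative to the other fertile A2 libraries was 1.497% for kinases and phosphatases, 1.79% for sperm tail structure, 2.58% for ubiquitin and proteasome, 10.7% for adhesion and matrix, 13.7% for ion channels, 19.7% for histones and 24.1% for dyneins. In infertile C2 library 1 the summed level relative to the fertile C2 mean was 15.26 for kinases and phosphatases, 9.86 for ubiquitin and proteasome, 1.36 for dyneins and 0.390 for histones. Over the members as a whole, infertile C2 library 1 lay above all 3 fertile libraries for 219 of 279. These C2 values rest in part on the low fertile C2 mean used in the choice.

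**Figure D5:**
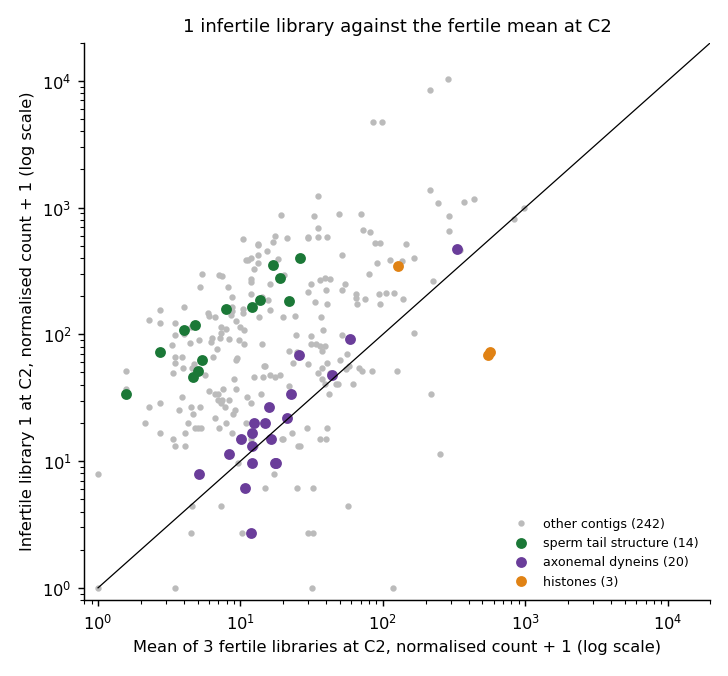
Level of each of 279 members in infertile C2 library 1 against its mean in fertile C2 libraries (normalised read counts + 1, log axes, with the line of equal values), with 3 roles in colour. Of the 279, 219 lie above all 3 fertile libraries, among them 14 of 14 of the sperm tail list and 10 of 20 dyneins. These counts are in part set by the low fertile C2 mean used in the choice.

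A second set of 131 contigs met the same limits at A1 and B1 but not the limit at C2, and 129 of these had all library values. The fertile C2 mean had a median of 0.0479 of that at B1 over the members and of 0.486 over the second set, a difference fixed by the choice. The sum in fertile A2 library 3 was 0.0619 of the other fertile A2 libraries for the members and 0.344 for the second set. In infertile library 1 the sum of the members was 7.61 times that of the other infertile libraries at B2, 22.3 times at C1 and 19.4 times at C2, and the sum of the second set was 2.65, 5.53 and 3.79 times. In infertile C2 library 1, 219 of 279 members and 0 of 129 contigs of the second set lay above all 3 fertile libraries, counts that rest on the fertile C2 level used in the choice. The median log2 difference of the members was 4.59 at A2, 4.66 at B2 and 2.45 at C1, and that of the second set was 4.29, 2.66 and 2.43. The sets were not tested against each other.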

How the data were processed

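Per the labels, polyA libraries of whole colonies were sequenced as read pairs. The authors removed the first 12 bases, aligned with Bowtie 0.12.7 to an expressed sequence tag assembly, counted reads per contig and normalised each stage with DESeq 1.10.1. SAMtools 0.1.18, RSEM 1.2.3, CASAVA 1.8.2 and FastQC are also in the submitters' notes. The deposited signal is the group mean of normalised read counts over 3 libraries, 1 table per stage. The tables also hold the authors' fold changes, log2 fold changes, p-values and adjusted p-values, which were not used.

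Library values were recovered by finding 3 step sizes per group column such that each mean is a sum of whole read pairs, each counted as 2 reads. At least 99.64% of 50106 contigs had a single solution in each column, and 0 of 3000 decoys per column were solved. The few contigs left unresolved were abundant, with 37.4% (infertile C1) to 72.0% (fertile C1) of the summed mean of a column. Means above 25000 were not sought. Size factors recomputed from the recovered read pairs were within 0.9973 and 1.003 times those recovered. The procedure was tested on simulated data. Recovered libraries were given no genotype.

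Limma 3.58.1 in R 4.3.3 was run per stage on log2(normalised count + 1), 2-sided, where the 6 libraries averaged 10 or more, with Benjamini-Hochberg adjustment over all contigs tested and a 10% limit. Fold changes are on that scale, which understates changes of low contigs. An exact permutation test of 3 against 3 libraries cannot go below p = 0.10, so that none was made. Limma p-values measure the spread between 3 colonies or pools. Voom used the recovered read pairs. Python 3.11.15, numpy 2.4.6, pandas 2.3.3 and matplotlib 3.10.9 were used otherwise.

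Members, lists and tests were chosen with earlier results of these data known. Named contigs are the 3 members of each list, and the 3 without homolog, with the highest fertile mean at B1, the 2 with the smallest limma p at A2, B2, C1 and D, and the pair at each limit. Levels are not per length, so that contigs are not compared with each other. None of 282 contig names matched the 27655 genes of the RefSeq table, assembly Bs_hap1, and no sequences are shown. Alternatives were the pseudocount, filter, scaling, test, fit and leaving out each library.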

Additional observations from a re-analysis of the deposited data

Results flagged for a closer look

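There were 3 members with all fertile libraries above all infertile ones at B2 and all infertile libraries above all fertile ones at D. The share of all contigs with such a turn was not counted, so that 3 cannot be set against it. The difference at D in the mean of log2(count + 1), fertile minus infertile, was -0.61 for Bot_rep_c45936 (no homolog), -0.89 for Bot_c22182 (PAS domain-containing serine/threonine-protein kinase) and -2.63 for Bot_rep_c45862 (no homolog, fertile above also at A2). The difference between the stages was not tested, and levels at D were near the detection limit: Bot_rep_c45862 had 0 in all 3 fertile D libraries and 1, 12 and 1 read pairs in the infertile ones, so that most lay in 1 library. Bot_c22182 had 2, 1 and 2 read pairs in fertile and 4, 2 and 4 in infertile D libraries. For Bot_rep_c45936 they were 3, 3 and 1 in fertile and 4, 3 and 3 in infertile D libraries.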

How the results depend on the processing

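No paired analysis was made, because the deposited tables hold group means, and the values recovered from them carry no genotype. The mapped reads of fertile and infertile samples that the study gives as additional material were not used. The number of members was 174 with a ratio of at least 16 in place of 8. The main limma counts of members called were 0, 0, 0 and 3 at A2, B2, C1 and D. At A2 a pseudocount of 0.5 gave 3 calls and 1 fit over all stages 115. At B2 a pseudocount of 0.5 gave 1, a mean of at least 50 gave 1, scaling by total read pairs gave 2 and 1 fit over all stages 79. At D a 5% limit gave 0, a pseudocount of 5 gave 7, no filter 7, scaling by total read pairs 5, the upper quartile 5, a trended prior 1, voom 0 and 1 fit over all stages 1. The cause was not tested. Except where given above, the share of all contigs called in these alternatives and in the leave-outs below is not given. Such counts of members therefore cannot be set against it. Leaving out each library in turn gave 0 to 182 calls at A2, 0 to 38 at B2, 0 to 1 at C1 and 0 to 29 at D, and groups apart for 183 to 279 members at A2 and 6 to 238 at C1. Among 148 results for named contigs with 2153 alternative values, 2047 kept their call, 80 gained one, 19 lost one and 7 changed sign. The log2 difference of CAP3_round1_contig_1311 at C1 was -0.16 with voom. Leaving out libraries gave -0.922 to 2.155 for CAP3_round1_contig_8769 at C1, -0.048 to 1.362 for Bot_c2194 at D, -0.382 to 2.969 for CAP3_round1_contig_433 at C1 and -0.516 to 1.001 for CAP3_round1_contig_7351 at D. The calls at D rested on few libraries, and counts near 0 limit what can be seen there.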
